A study of Rattus norvegicus with 6 samples.

Results

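The collagen and laminin chains are the structural proteins of the extracellular matrix that were read here in cultured rat spinal cord astrocytes. The genes were taken by name: every probe set whose platform annotation gave a single gene symbol for a collagen alpha chain (Col, a number, a, a number) or a laminin alpha, beta or gamma chain (Lama, Lamb or Lamc with a number). This gave 51 genes, read by 72 probe sets, of 14217 named genes and 31042 probe sets on the Affymetrix Rat Genome 230 2.0 array. A probe set is a group of short probes for one transcript. The 17 genes with several probe sets were represented by the one with the highest mean log2 signal. Of the 51 genes, 41 encode collagen chains and 10 encode laminin chains. They fall into 11 fibrillar chains, 17 basement membrane chains (7 collagens of types IV, XV and XVIII and the 10 laminins) and 23 other collagen chains.

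The cultures were primary astrocytes of rat spinal cord in 2 groups of 3 arrays each. One group came from transgenic rats carrying hSOD1G93A, the human superoxide dismutase gene with a mutation found in inherited amyotrophic lateral sclerosis, and the other from nontransgenic rats (NonTG). In both groups, confluent monolayers were kept for 24 h in supplemented L15 medium before RNA was taken. The labels give no promoter for the transgene, no age of the animals and no number of animals behind a culture, and each title carries a replicate letter, A, B or C, whose meaning is not stated. Whether the 3 arrays of a genotype stem from different litters, animals or platings is not stated either, and the p-values below therefore refer to the variation among these arrays, part of which may be technical.

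Collagen chains assemble as trimers in the endoplasmic reticulum, where their prolines and lysines are hydroxylated. The fibrillar chains are then trimmed outside the cell and cross-linked into fibrils. Type IV collagen and the laminins, which are trimers of 1 alpha, 1 beta and 1 gamma chain, form the separate networks of a basement membrane, joined by nidogens and perlecan. In the spinal cord such membranes line the pia and the vessels, where astrocyte endfeet meet them, and fibrillar collagen lies mainly in the meninges and around larger vessels.

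The values are MAS5 signals, background-corrected and scaled by the authors to a common level per array, and a level is given as this linear signal. Signals of different probe sets do not compare as amounts. The median signal of an array lay between 130 and 137 in the hSOD1G93A cultures and between 129 and 136 in the NonTG cultures. Rat Sod1 read 9781, 10860.3 and 10510.2 in the hSOD1G93A cultures, against 8982, 8855 and 9430 in the NonTG cultures, a 1.14-fold difference whose adjusted p in limma was 0.9997. The array has rat probes, and how far they read the human transcript was not tested. Of 14 astrocyte markers on the array, 13 were above the limit for dim probe sets that is defined next. Fabp7, which binds fatty acids in glia, was the brightest, at 19938, 21723.5 and 22260.5 in the hSOD1G93A cultures, against 22005, 23400.0 and 22855 in the NonTG cultures. Gfap, the astrocyte intermediate filament, read 14400.0, 16419 and 15313 in the hSOD1G93A cultures, against 15999, 17105 and 16814 in the NonTG cultures. Others were dim: Slc1a2, a glutamate transporter, read 79.5 to 143 over the 6 arrays, and Gjb6, a gap junction protein, read 1.40 to 38.4, below the limit.

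A probe set counted as above the dim limit when its mean log2 signal over the 6 arrays exceeded the 40th percentile, 6.06, a signal of 66.7. Of the 51 chains, 33 were above it: 8 fibrillar, 13 basement membrane and 12 other chains. The 18 chains at or below it were Col2a1, Col11a2 and Col24a1 among the fibrillar chains, Col4a4, Lama1, Lama2 and Lamb3 in the basement membrane, and Col6a5, Col6a6, Col9a1, Col9a3, Col10a1, Col13a1, Col17a1, Col19a1, Col20a1, Col25a1 and Col26a1 among the others. Their signals reached from 0.331, for Col25a1 in hSOD1G93A A, to 138, for Lama1 in hSOD1G93A B. The chains nearest the limit were Col9a2 just above it, at a mean log2 signal of 6.42, and Col26a1 and Lama1 just below it, at 6.05 and 6.04.

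**Figure D1:**
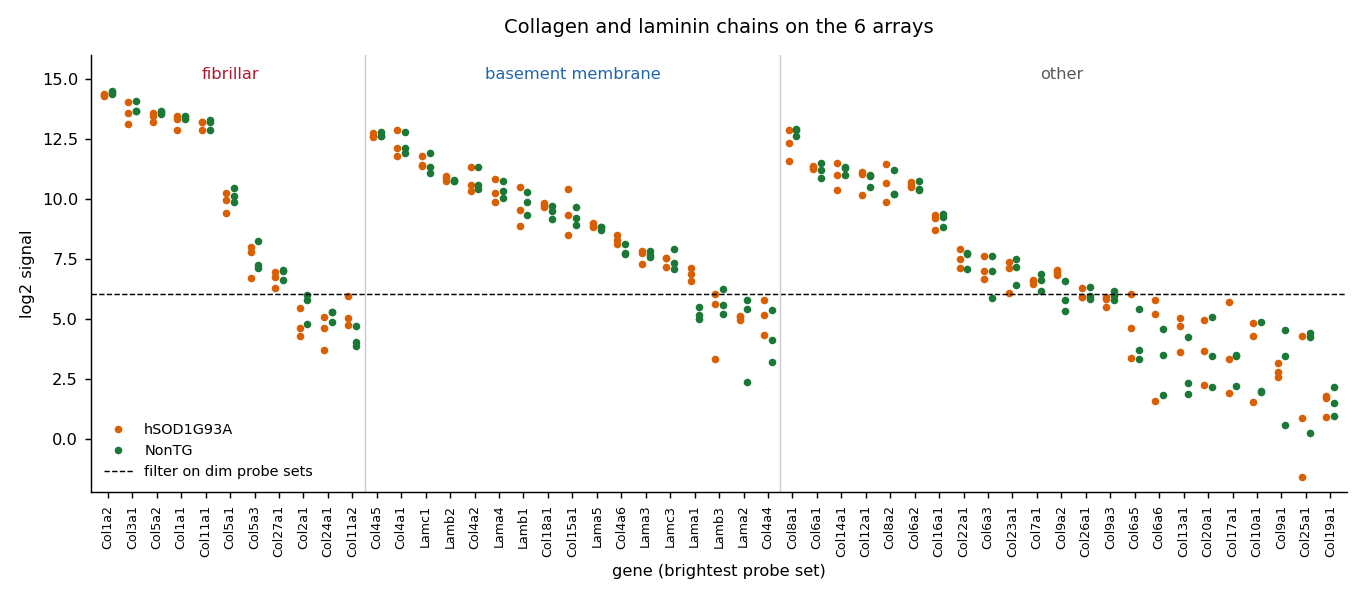
Log2 signal of the 51 collagen and laminin chains, ordered by class and by mean signal, with the 3 hSOD1G93A arrays left of the 3 NonTG arrays for each gene and the dim limit of 6.06 as a dashed line. Points of the bright chains lie close together and those below the line scatter widely. Lama1, just below the line, and Col9a2, just above it, are chains near the line whose 2 groups do not overlap.

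The first comparison asks how the chains differed by genotype. No collagen or laminin chain passed the adjusted threshold of 0.05: 0 of 33, with a lowest adjusted p of 0.9997 in limma, and 0 of all 18625 probe sets tested (0.0%). At an unadjusted p under 0.05, 2 of the 33 chains were counted, Col4a6 and Col9a2, against 474 of the 18625 probe sets (2.54%). Col9a2 was above the dim limit only through the hSOD1G93A arrays, with a mean log2 signal of 6.94 there and 5.90 in the NonTG cultures, so its place in this and the following counts is no support for a difference. Arrays of the same letter varied together across the 2 genotypes, as set out under the processing, while the labels state no pairing. With the letter as a block, 9 of 33 chains had an unadjusted p under 0.05, against 1090 of 18625 probe sets (5.85%), and their adjusted p was 0.834 in each case. Of these 9, 6 had lower signals in the hSOD1G93A cultures (Col1a1, Col1a2, Col3a1, Col5a1, Col5a2 and Col8a1) and 3 had higher signals (Col4a6, Col9a2 and Col18a1). With the block's correlation estimated from the data in place of a fixed block, 6 of 33 remained, against 1005 of 18625 probe sets. Col1a1, Col3a1 and Col5a1 dropped out, with unadjusted p of 0.13, 0.18 and 0.13 in limma. Of the 33 chains, 12 had a higher and 21 a lower mean in the hSOD1G93A cultures, with a median log2 difference of -0.03, against 0.0070 over all probe sets tested.

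All 8 fibrillar chains above the limit had a lower mean log2 signal in the hSOD1G93A than in the NonTG cultures (7 of 8 after quantile normalization, Col11a1 then being at 0.0096). The median difference was -0.19, and 48.0% of all probe sets tested were lower. None of the 8 had an unadjusted p under 0.05 without the letter block, 5 had with the block, and 2 had with its estimated correlation. Over all 18625 probe sets these counts were 474, 1090 and 1005. The differences of the 8 chains ran from -0.27 for Col5a1 to -0.03 for Col11a1. In 6 of 8 the difference was below 0 within each of the letters A, B and C, which held for 2278 of 18625 probe sets (12.2%). This count rests on the brightest probe set of each gene. The other probe sets of Col1a1, Col5a1, Col5a2 and Col11a1 were not below 0 within every letter. Over the 8 chains the median within-letter difference was -0.08 in A, -0.31 in B and -0.11 in C. Without hSOD1G93A B the class median was -0.06, and without hSOD1G93A A it was -0.29. A lower signal in bulk RNA does not tell fewer cells of a type from less RNA per cell, here and for every chain that follows.

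The brightest fibrillar probe set read Col1a2, which encodes the second chain of type I collagen, the main fibril of skin, bone and tendon. Its signal was 19707, 20887.5 and 20793 in the hSOD1G93A cultures, against 21029, 23383 and 22567 in the NonTG cultures. The highest hSOD1G93A array lay below the lowest NonTG array, so the groups did not overlap, as was the case for 1398 of the 18625 probe sets (7.51%). The log2 difference was small, -0.12 ± 0.07 (SE, n = 3 per group), with an unadjusted p of 0.086 in limma and 0.024 with the letter block. Over the alternative settings listed under the processing it ran from -0.17 to -0.02, so its size depends on the processing. A second Col1a2 probe set gave -0.12 and likewise did not overlap. The Col1a2 probe set was the 16th brightest of the 31042 on the array.

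Col1a1, the partner of Col1a2 in type I collagen, read 11264.5, 7478 and 10254.5 in the hSOD1G93A cultures, against 11277, 10180.2 and 10986.5 in the NonTG cultures. Only hSOD1G93A B stood clearly below the other arrays, and the mean difference of -0.18 ± 0.13 (SE) had an interval of -0.49 to 0.12. Within A the Col1a1 difference was -0.0016. A second Col1a1 probe set gave a mean difference of -0.11, with 0.11 in A and 0.04 in C. Its unadjusted p in limma with the letter block was 0.32. Col3a1, the chain of type III collagen found with type I in pliable tissue, read 16625, 8987.5 and 12245 in the hSOD1G93A cultures, against 17515, 12929.6 and 12904 in the NonTG cultures. Here too hSOD1G93A B was the lowest array, with a within-letter difference of -0.52 in B beside -0.08 in A and -0.08 in C.

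Types V and XI collagen start fibrils and set their width. Col5a2 read 12263, 9453 and 11178 in the hSOD1G93A cultures, against 12821, 12037 and 12536 in the NonTG cultures. Every hSOD1G93A array was below its NonTG array of the same letter, with a mean difference of -0.19 ± 0.09 (SE), but a second Col5a2 probe set gave 0.0014. Col5a1 read 1221, 674 and 1002 in the hSOD1G93A cultures, against 1390.2, 937 and 1112 in the NonTG cultures, a difference of -0.27 ± 0.22 (SE) that was again widest in B, at -0.47. A second Col5a1 probe set gave -0.12, with 0.25 in A and an unadjusted p of 0.36 in limma with the letter block. Col11a1 read 9307, 7485 and 9462 in the hSOD1G93A cultures, against 9393, 7590.1 and 9890.2 in the NonTG cultures. Its groups lay on top of each other, with a difference of -0.03 ± 0.12 (SE), and its 2 other probe sets gave -0.02 and 0.10. Col5a3 and Col27a1, the 2 remaining fibrillar chains above the limit, had signals of 78.3 to 259 in the hSOD1G93A cultures and 99.7 to 306 in the NonTG cultures, with differences of -0.04 and -0.24.

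**Figure D2:**
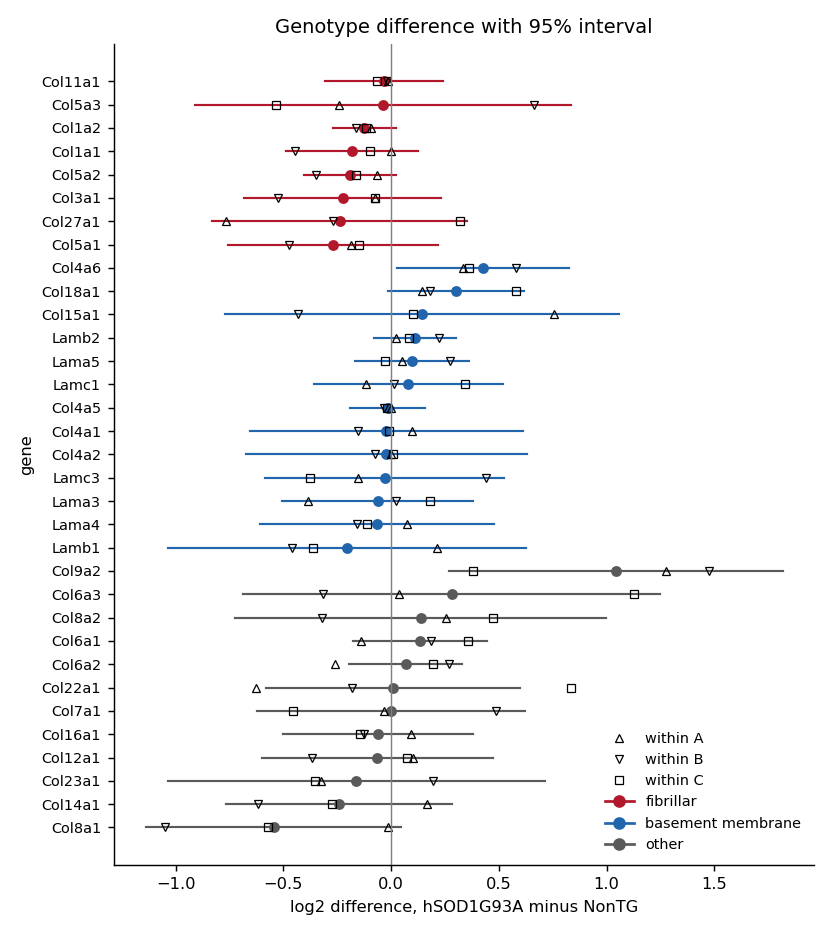
Log2 difference hSOD1G93A minus NonTG for the 33 chains above the dim limit, with the 95% interval from limma as a bar and the differences within letter A, B and C as open symbols, by class. All 8 fibrillar points lie below 0 with intervals that include 0 (7 of 8 lie below 0 after quantile normalization), while the interval of Col4a6 lies above 0. That of Col9a2 also does, but this chain was above the dim limit only through its hSOD1G93A signals.

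The basement membrane chains split evenly by genotype, with 6 of 13 higher and 7 lower in the hSOD1G93A cultures (7 and 6 after quantile normalization) and a median difference of -0.02. Col4a1 and Col4a2 encode the chains of the common type IV trimer. Col4a1 read 7531, 3513 and 4409.7 in the hSOD1G93A cultures, against 7043.5, 3906 and 4440.1 in the NonTG cultures. Col4a2 read 2598, 1277 and 1531 in the hSOD1G93A cultures, against 2598, 1345 and 1524 in the NonTG cultures. In both genes each hSOD1G93A array lay next to the NonTG array of its letter, and the mean differences were -0.02 ± 0.28 and -0.02 ± 0.29 (SE). Their 95% intervals were -0.66 to 0.61 and -0.67 to 0.63 in this fit, whose spread includes that between letters. With the letter block the standard errors were 0.068 and 0.076, with unadjusted p of 0.75 and 0.77 in limma.

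Col4a5, which belongs to the kidney and smooth muscle forms of type IV collagen, read 6276, 6808 and 6148.5 in the hSOD1G93A cultures, against 6279, 6966.5 and 6224 in the NonTG cultures. It was the steadiest of the bright basement membrane chains, with a difference of -0.02 ± 0.08 (SE) and an interval of -0.19 to 0.16. Its partner gene Col4a6 read 357, 312 and 276 in the hSOD1G93A cultures, against 283, 209 and 215 in the NonTG cultures. All 3 hSOD1G93A arrays were above their NonTG array of the same letter, although hSOD1G93A C fell below NonTG A. The difference was 0.43 ± 0.18 (SE), a 1.34-fold higher signal with an unadjusted p of 0.039 in limma. The second Col4a6 probe set went the other way, at -0.23.

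Col18a1, the core protein of a heparan sulfate proteoglycan and source of endostatin, read 915, 823 and 862 in the hSOD1G93A cultures, against 828, 726 and 577 in the NonTG cultures. It was higher within every letter, by 0.14, 0.18 and 0.58, with a mean difference of 0.30 ± 0.14 (SE) and an unadjusted p of 0.059 in limma, or 0.027 with the letter block. Its second probe set gave 0.35. Being higher within all 3 letters held for 4 of the 33 chains (Col4a6, Col9a2, Col18a1 and Lamb2) and for 2523 of 18625 probe sets (13.5%).

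Among the laminins, 3 of 7 chains above the limit were higher and 4 lower, and none had an unadjusted p under 0.05 with or without the block. Lamb2, the beta chain of vessel and synaptic basement membranes, read 1734, 1981 and 1857.5 in the hSOD1G93A cultures, against 1706.5, 1696 and 1753 in the NonTG cultures. Its difference was 0.11 ± 0.09 (SE). Lamc1, the gamma chain that most laminins share, read 3535, 2629.6 and 2744 in the hSOD1G93A cultures, against 3831, 2609.5 and 2167 in the NonTG cultures, a difference of 0.08 ± 0.19 (SE). Lama4, an alpha chain of vessel laminins, read 1803.5, 937 and 1203.5 in the hSOD1G93A cultures, against 1714, 1045 and 1299 in the NonTG cultures. Lamb1, the most widespread beta chain, read 1446, 472 and 735 in the hSOD1G93A cultures, against 1248, 650.4 and 945 in the NonTG cultures. In both the arrays ran by letter rather than by genotype, with mean differences of -0.06 ± 0.24 and -0.20 ± 0.37 (SE). With the letter block their standard errors were 0.087 and 0.13. The other laminin chains above the limit, Lama3, Lama5 and Lamc3, differed by -0.06, 0.10 and -0.03.

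Lama1 encodes an alpha chain of early basement membranes, the meninges and the choroid plexus. It is described here because its groups stood apart, and was chosen after its values were seen. Its signal was 119, 138 and 95.2 in the hSOD1G93A cultures, against 35.7, 45.7 and 32.3 in the NonTG cultures. The 3 hSOD1G93A arrays were above the dim limit of 66.7 and the 3 NonTG arrays below it, so the gene missed the filter on its mean. When all 31042 probe sets were tested, the log2 difference of 1.63 ± 0.38 (SE) had an unadjusted p of 0.0015 and an adjusted p of 0.9998 in limma. With 16 added to each signal the difference was 1.30, with an adjusted p of 0.9995. Since the NonTG signals lay under the limit, the 3.10-fold size is uncertain.

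The other collagen chains were balanced by genotype, with 6 higher and 6 lower and a median difference of 0.0038. Col8a1 and Col8a2 encode the short-chain type VIII collagen of vessel walls and of Descemet's membrane. Col8a1 read 7497, 3039 and 5124 in the hSOD1G93A cultures, against 7579.9, 6287 and 7629 in the NonTG cultures. In A the genotypes were level, and in B and C the hSOD1G93A array was lower, by -1.05 and -0.57. The mean difference of -0.55 ± 0.26 (SE), 1.46-fold higher in NonTG, had an unadjusted p of 0.067 in limma and 0.0050 with the block. Col8a2 read 2836, 943 and 1638 in the hSOD1G93A cultures, against 2376, 1177 and 1179.8 in the NonTG cultures. It spread widely within each genotype, and its difference was 0.14 ± 0.38 (SE).

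Type VI collagen forms beaded filaments around cells. Col6a1 read 2592, 2684 and 2410.3 in the hSOD1G93A cultures, against 2858, 2360.0 and 1883 in the NonTG cultures, a difference of 0.13 ± 0.14 (SE). Its partner Col6a2 differed by 0.07, with -0.12 from a second probe set, and Col6a3 by 0.28. Types XII and XIV sit on the surface of fibrils. Col12a1 read 2209, 1135.5 and 2077 in the hSOD1G93A cultures, against 2058, 1465.5 and 1973.5 in the NonTG cultures, and its difference was -0.06 ± 0.24 (SE), with -0.02 and 0.09 from 2 further probe sets. Col14a1 read 2851, 1330.3 and 2058 in the hSOD1G93A cultures, against 2542, 2043 and 2491 in the NonTG cultures, with a difference of -0.24 ± 0.23 (SE). For both genes hSOD1G93A B was the lowest array.

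Col9a2, a chain of the cartilage collagen type IX, lay near the dim limit and read 132.5, 113 and 124 in the hSOD1G93A cultures, against 54.8, 40.7 and 95.3 in the NonTG cultures. The log2 difference was 1.04, a 2.06-fold higher signal, or 0.86 with 16 added to each signal. Of the NonTG arrays, A and B were under 66.7, so this size too is uncertain. No test is read from it, since the high hSOD1G93A signals brought it above the limit. Among the 33 chains, Col1a2 and Col9a2 were the 2 whose groups did not overlap. Over all 51 chains there were 4, Lama1 and Col11a2 being added, against 2510 of 31042 probe sets (8.09%). Col11a2, a fibrillar chain of cartilage chosen here for that reason after its values were seen, read 33.3, 62.3 and 26.7 in the hSOD1G93A cultures, against 26, 16.6 and 14.5 in the NonTG cultures, all below the dim limit.

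**Figure D3:**
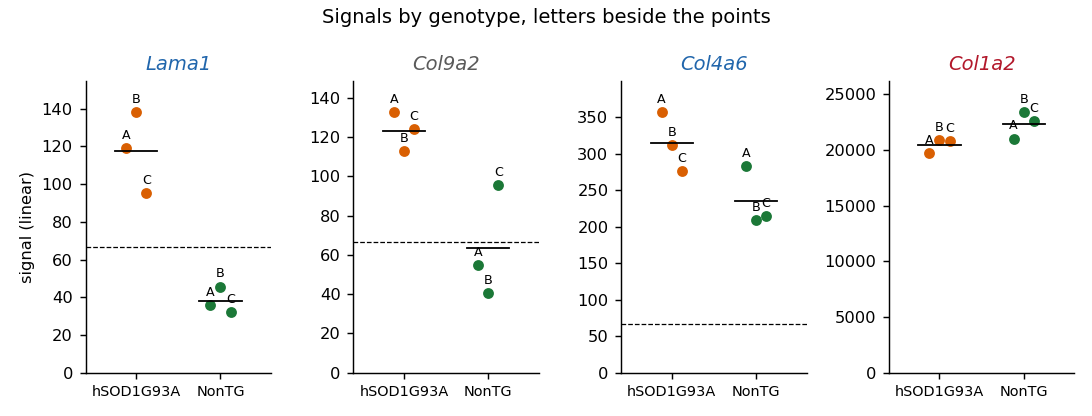
Signal of Lama1, Col9a2, Col4a6 and Col1a2 on each array, hSOD1G93A left and NonTG right, with the replicate letter at each point, the group mean as a bar and, for the 3 dimmer genes, the dim limit of 66.7 as a dashed line. Lama1, Col9a2 and Col1a2 do not overlap between the groups, while for Col4a6 the highest NonTG point lies above the lowest hSOD1G93A point.

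The second comparison asks how the chains differed between the replicate letters, each of which holds 1 hSOD1G93A and 1 NonTG array. In a limma F test of the letter terms beside genotype, 7 of 33 chains passed the adjusted threshold, against 195 of 18625 probe sets (1.05%). They were Col4a1, Col4a2, Lama4 and Lamb1 of the basement membrane, the fibrillar Col3a1, and Col8a2 and Col12a1 of the others, all higher in A than in B. Over all probe sets, 123 of the 195 calls had A above B and 72 had B above A. At an unadjusted p under 0.05, 20 of 33 chains were counted, against 2897 of 18625 probe sets (15.6%). These calls rest on the intensity trend in limma's variance estimate: without it none of the 7 and none of the 18625 probe sets passed, with a lowest adjusted p of 0.34 among the chains, of which 14 had an unadjusted p under 0.05. With the mean over a gene's probe sets the count of chains past the threshold was 4, and the closing section gives the count over all probe sets. With 1 array left out, its letter holds a single array, so no count of calls is read from those fits.

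Col4a1 had the lowest adjusted p of the chains, 0.0028. Its signals, given above, were highest on both A arrays, and the B and C arrays lay between 3513 and 4440.1. A exceeded B 1.97-fold, by 1.10 log2 in the hSOD1G93A and 0.85 in the NonTG cultures, and exceeded C 1.65-fold. A second Col4a1 probe set gave an A to B difference of 1.15 log2. Col4a2 followed Col4a1 closely: A exceeded B 1.98-fold, by 1.03 log2 in the hSOD1G93A and 0.95 in the NonTG cultures, with an adjusted p of 0.0036. In both genotypes and both genes the order was A above C above B.

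Among the laminin chains, Lamb1 was 2.43-fold and Lama4 1.78-fold higher in A than in B, each with an adjusted p of 0.020. Lamc1, the gamma chain that assembles with them, was 1.40-fold higher in A than in B at an adjusted p of 0.066, while its second probe set had 0.048. Lamb2 and Lama5, which form another vessel laminin with Lamc1, had A to B differences of -0.09 ± 0.10 and -0.01 ± 0.15 log2 (SE), with adjusted p of 0.82 and 0.99. Col15a1, a proteoglycan at the outer face of basement membranes, had the widest A to B difference of the 33 chains, 2.52-fold, and was chosen here after its values were seen. It read 1376, 362 and 637 in the hSOD1G93A cultures, against 815, 488 and 594 in the NonTG cultures. The gap was 1.93 log2 in the hSOD1G93A and 0.74 in the NonTG cultures, the standard error was 0.23 and the adjusted p was 0.059, against 0.036 for its second probe set.

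Col8a2 was 2.46-fold higher in A than in B at an adjusted p of 0.017. Its partner Col8a1 was 1.72-fold higher, with 1.30 log2 in the hSOD1G93A and 0.27 in the NonTG cultures and an adjusted p of 0.14. Col12a1 was 1.65-fold higher in A than in B at an adjusted p of 0.045, while A exceeded C 1.05-fold. Col12a1 was not past the threshold after quantile normalization, with no dim limit, no intensity trend, no genotype term or the mean over probe sets. Its other probe sets were not past the threshold, with adjusted p of 0.082 and 0.23 in the same F test. Col14a1 differed 1.63-fold at an adjusted p of 0.12, against 0.78 for its second probe set, which differed by 0.17 log2.

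For the fibrillar chains the letters separated Col3a1, 1.58-fold higher in A than in B with an adjusted p of 0.042. Col3a1 was not past the threshold with no dim limit, no intensity trend, no genotype term, array weights or the mean over probe sets. Col5a1 and Col11a1 were just over the threshold, at 0.057 and 0.055, with A over B ratios of 1.64 and 1.24. In the same F test the second Col5a1 probe set had an adjusted p of 0.33, and the other Col11a1 probe sets had 0.23 and 0.18. Col1a1 was 1.29-fold higher at an adjusted p of 0.19. Col1a2, its partner, had an A to B difference of -0.12 ± 0.06 log2 (SE), with an adjusted p of 0.48. After quantile normalization this log2 difference was 0.032, still not past the threshold. Whether the 2 chains of this trimer differed from each other in their letter difference was not tested.

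**Figure D4:**
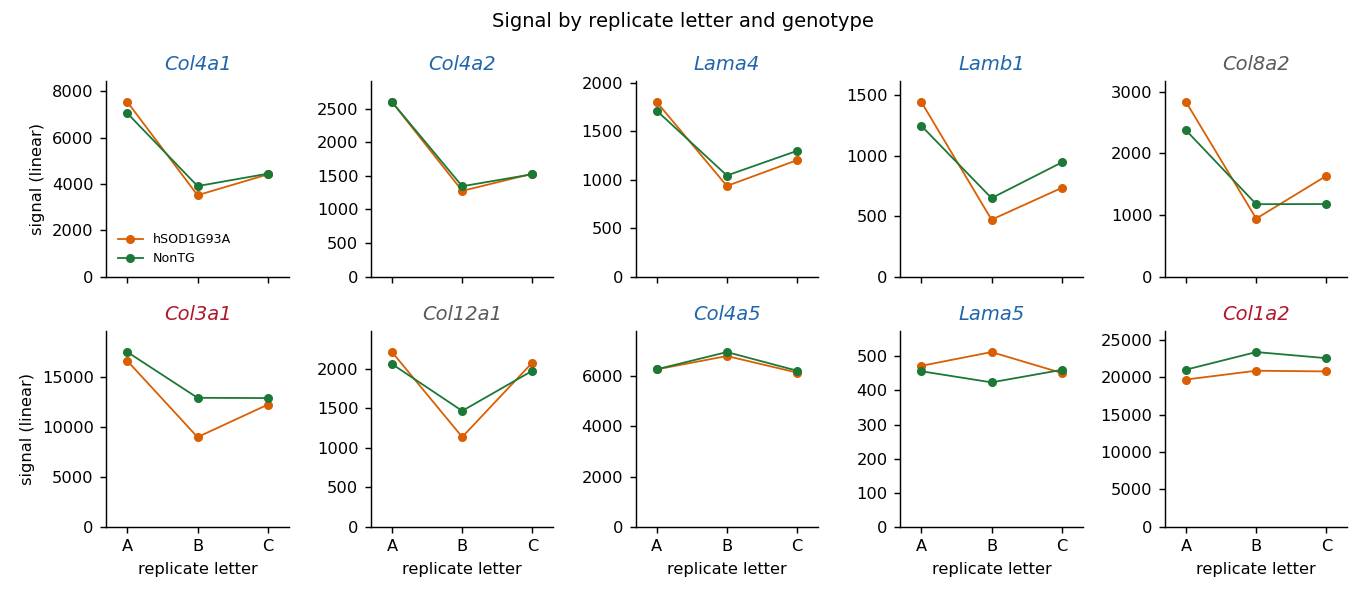
Signal by replicate letter A, B and C, hSOD1G93A and NonTG as separate lines, for the 7 chains past the threshold for the letters and for Col4a5, Lama5 and Col1a2, which were not past it. In Col4a1, Col4a2, Lama4, Lamb1 and Col8a2 both lines drop from A to B, while those of Col4a5, Lama5 and Col1a2 stay nearly flat.

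The letter differences of the 2 genotypes come from separate arrays. A was above B in both genotypes for 21 of 33 chains, against 5288 of 18625 probe sets (28.4%). A was the highest letter in both for 17 (15.7% of all probe sets), and the full order A above C above B stood in both for 11 (5.28%). By class, A was above B in both genotypes for 6 of 8 fibrillar, 8 of 13 basement membrane and 7 of 12 other chains. The reverse, B above A in both, was seen for Col1a2, Col4a5, Lama3 and Col23a1. Col23a1, a transmembrane collagen, had the widest of these gaps, -1.01 ± 0.29 log2 (SE), with an adjusted p of 0.16.

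**Figure D5:**
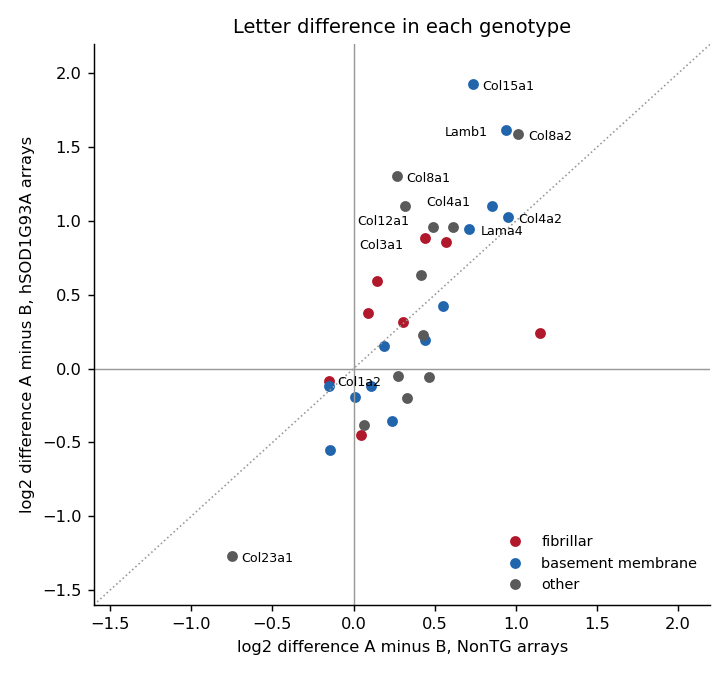
Log2 difference A minus B in the hSOD1G93A arrays (vertical) against that in the NonTG arrays (horizontal) for the 33 chains above the dim limit, coloured by class, with the line of equal differences dotted. The 21 chains in the upper right had A above B in both genotypes, Lamb1, Col8a2, Col4a1 and Col4a2 among the farthest out, and Col23a1 lies alone at the lower left.

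Col4a1 and Col4a2 lie head to head and start 76 bases apart, so the stretch between their starts lies upstream of both genes. It is shown with the 100 bases before the starts of Lamb1, Lama4 and Col8a2, which also differed by letter, and of Col4a5, whose adjusted p for the letters was 0.41. The sequences are RefSeq's on GRCr8, 5′ to 3′ on the + strand, with GC boxes (GGGCGG or its complement) in capitals:
Col4a1/Col4a2, chr16:84885521-84885596: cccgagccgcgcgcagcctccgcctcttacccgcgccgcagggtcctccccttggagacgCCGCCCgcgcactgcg
Lamb1, chr6:53562996-53563095: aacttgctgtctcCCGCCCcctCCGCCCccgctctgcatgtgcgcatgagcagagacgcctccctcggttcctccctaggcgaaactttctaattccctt
Lama4, chr20:43946798-43946897: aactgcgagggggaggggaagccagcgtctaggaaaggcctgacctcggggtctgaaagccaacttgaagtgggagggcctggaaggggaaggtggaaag
Col8a2, chr5:143870669-143870768: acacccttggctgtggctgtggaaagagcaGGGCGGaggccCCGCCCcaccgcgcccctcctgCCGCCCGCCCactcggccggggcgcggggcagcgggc
Col4a5, chrX:109907259-109907358: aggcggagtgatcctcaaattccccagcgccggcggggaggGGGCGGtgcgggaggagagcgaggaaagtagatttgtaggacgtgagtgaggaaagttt

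GC content was 79.0% between Col4a1 and Col4a2 and 80.0% before Col8a2, against 61.0% before Lamb1 and Lama4. Motifs were sought on both strands in the window of 250 bases before to 50 bases after each start, which was given for 26 of the 33 chains above the dim limit and for 5 of the 7 that differed by letter. The GC box was found in 18 of these 26, against 36.0% of the 27457 genes with a window. Those genes were not filtered by signal as the 26 were. This share and those that follow thus come from an unlike set. The CCAAT box was found in 5 (39.6% of all genes), TATAAA in 2 (15.3%) and TGANTCA, the AP-1 motif, in 2 (8.04%). Of the 5 chains that differed by letter, 4 held a GC box (all but Lama4), Col4a1 and Col4a2 held CCAAT, Lama4 held TATAAA, and none held TGANTCA. The windows of Col4a1 and Col4a2 overlap, so the GC box printed between their starts was counted for both genes, here and among the 18. The stretch printed between them holds no CCAAT. On the other strand CCAAT reads ATTGG, which can share its last bases with a GC box. The Col4a5 stretch also holds a GC box. These are matches of letters, not measured sites.

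Of the other neighbouring pairs, Col4a5 and Col4a6 lie 1263 bases apart, Col3a1 and Col5a2 38189, and Col6a1 and Col6a2 97070. In none of these pairs did both genes pass the letter threshold. Col3a1 passed it, while Col5a2, 1.18-fold higher in A than in B, had an adjusted p of 0.30.

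The genes that modify, trim and cross-link collagen were compared with the chains. Of 26 on the array, 24 were above the dim limit. None passed the adjusted threshold by genotype, and 22 of the 24 had a lower and 2 a higher mean in the hSOD1G93A cultures (20 and 4 after quantile normalization), with a median difference of -0.11. Plod2, which hydroxylates lysines used for cross-links, read 3712, 2407 and 3032 in the hSOD1G93A cultures, against 3460.1, 3551 and 4280.1 in the NonTG cultures. Pcolce, an enhancer of the protease that trims procollagen, read 1739.7, 1351 and 1635 in the hSOD1G93A cultures, against 1764, 1897 and 2026 in the NonTG cultures. For Pcolce the difference was -0.27 ± 0.11 (SE), with an unadjusted p of 0.037 in limma, and for Plod2 it was -0.32 ± 0.15 (SE), with 0.063. Fkbp10, a chaperone of procollagen, differed by -0.22. By letter, 1 of the 24 passed the threshold, against 1.05% of all probe sets. It was Loxl1, an oxidase that cross-links collagen and elastin, with an A to B difference of 1.52 log2 and an adjusted p of 0.018.

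Of the partners and receptors of the basement membrane, 22 of 24 genes on the array were above the dim limit, 10 higher and 12 lower in the hSOD1G93A cultures, with a median of -0.05 and none past the adjusted threshold by genotype. Cd44, a receptor of hyaluronan and collagen, differed by -0.27 (unadjusted p of 0.041 in limma). Itga11, a collagen receptor chain, differed by -0.92 ± 0.54 (SE), with an unadjusted p of 0.12 in limma. Within A, B and C its differences were 0.10, -2.19 and -0.69. Itgb4, a laminin receptor chain, differed by 0.71 ± 0.38 (SE), with an unadjusted p of 0.092 in limma. Its differences within A, B and C were -0.22, 1.24 and 1.10. By letter, 2 of the 22 passed the threshold, Nid2 and Fn1, against 1.05% of all probe sets. Nid2, a nidogen that links laminin to type IV collagen, read 1971, 1075 and 1131 in the hSOD1G93A cultures, against 1909, 1058 and 1263 in the NonTG cultures, a difference of 0.86 log2 from A to B with an adjusted p of 0.013. For Fn1, which encodes fibronectin, the difference was 0.51 log2 and the adjusted p 0.031.

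Markers of cell types that make these chains were read on the same arrays. Of 15 markers of pericytes and smooth muscle, 11 were above the dim limit. All 11 had a lower mean in the hSOD1G93A cultures, also after quantile normalization, with a median difference of -0.26, and their median A to B difference was 0.70. Their summed signal, all 15 included, was 29826, 18031 and 25673 in the hSOD1G93A cultures, against 27953, 24210.1 and 30173 in the NonTG cultures. The lowest single signal in the list was 2.01. The sum was lowest in B within both genotypes, and between genotypes it gave p = 0.6 in an exact two-sided permutation test of 3 against 3 arrays, where 0.1 is the smallest p possible. Of the 11, Lmod1, a smooth muscle protein, had the smallest unadjusted genotype p, 0.020 in limma, with a difference of -0.58. Another, Rgs5, passed the letter threshold, with a difference of 2.10 log2 and an adjusted p of 0.043. Acta2, the smooth muscle actin, read 4699.9, 2072 and 3913 in the hSOD1G93A cultures, against 4229, 3548.5 and 5576 in the NonTG cultures. The part of these cells in the letter differences and in the fibrillar differences was not tested.

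Markers of fibroblasts and meningeal cells, other than collagens and laminins, were above the limit for 14 of 17 genes, 8 higher and 6 lower. Dcn, the fibril-binding proteoglycan decorin, read 667, 283 and 349 in the hSOD1G93A cultures, against 59.1, 92.3 and 63.9 in the NonTG cultures, a difference of 2.52 log2 with an adjusted p of 0.40 in limma. Its NonTG signals in A and C were under 66.7, so the size of this difference is uncertain. Aldh1a2, a retinoic acid enzyme of the meninges, differed by 1.15 log2. The 3 brightest markers of the list, Fmod, Postn and Ogn, differed by -0.14, -0.37 and 0.06 log2. Their unadjusted p in limma with the letter block was 0.025, 0.034 and 0.35. The summed signal was 49333, 45189 and 52105 in the hSOD1G93A cultures, against 48100.2, 54365 and 53122 in the NonTG cultures (exact permutation p = 0.4). By letter 1 of the 14 passed, Islr, a marker of stromal cells, against 1.05% of all probe sets. These values stand beside the Lama1 difference and beside those of the fibrillar chains, and their part in them was not tested.

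Endothelial markers were above the limit for 5 of 12 genes, and Pecam1, a defining marker, stayed under 66.7 on all 6 arrays. Their summed signal was 791 to 877 in the hSOD1G93A cultures and 813 to 893 in the NonTG cultures. Astrocyte markers, by contrast, were above the limit for 13 of 14 genes, with sums of 116076, 134318 and 129430.3 in the hSOD1G93A cultures, against 122465, 136703 and 126017 in the NonTG cultures. Their median A to B difference was -0.17 log2 over the 13 genes. The part of the astrocytes in the letter differences was not tested. Oligodendrocyte lineage markers were above the limit for 7 of 11 genes, 6 higher and 1 lower in the hSOD1G93A cultures, with a median difference of 0.25. Of the 7, 2 had an unadjusted p under 0.05 in limma without the block (Ugt8 at 0.025 and Mag at 0.043) and 4 with it, and none passed the adjusted threshold. Ugt8 and Mag, both myelin genes, were the 2 whose groups did not overlap. Over all 18625 probe sets, 2.54% had an unadjusted p under 0.05 in limma without the block and 5.85% with it, and 7.51% did not overlap. The summed signal of the list was 6817, 8206 and 6129 in the hSOD1G93A cultures, against 6140.2, 6248 and 5687 in the NonTG cultures (exact permutation p = 0.3). By letter, Mbp passed the threshold at an adjusted p of 0.019. Schwann cell markers were above the limit for 2 of 6 genes, both higher in the hSOD1G93A cultures, with a median difference of 0.30, and microglial markers for 2 of 11, 1 higher and 1 lower. The part of these cell types in the differences of the chains was not tested.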

How the data were processed

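Gene expression was measured with the Affymetrix Rat Genome 230 2.0 array in 6 cultures, 3 hSOD1G93A and 3 NonTG. Per the submitters' processing notes, the tools were MAS5 and GCOS 1.4, and what the authors deposited is one linear intensity value (signal) per probe set and array. The design text of the series names GC-RMA and log values instead, but the mean signal after trimming was 500.16 to 500.17 on every array. No detection calls were used, and the 57 control probe sets were left out. Of the other probe sets, 20826 had 1 gene symbol, 436 had several and 9780 had none.

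The log2 signal, without pseudocount or further normalization, was fitted with lmFit of limma 3.58.1 (R 4.3.3). Variances were moderated by eBayes along an intensity trend, tests were two-sided, and p-values were adjusted by Benjamini-Hochberg over the 18625 probe sets above the 40th percentile and a threshold of 0.05. Differences are hSOD1G93A minus NonTG, or A minus B, on the log2 scale, with 95% intervals. The letter test is the F test of the letter terms beside genotype. The fits were tested on simulated data. Precision is limited by the number of arrays, with a median standard error of 0.16 for a genotype difference and 0.17 for a letter difference. 

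Same-letter arrays of the 2 genotypes deviated together from their group means, with correlations of 0.30, 0.25 and 0.20 for A, B and C, against -0.28 to 0.03 for different letters. On this ground the letter was used as a block, but the labels state no pairing, and the pairing itself was not tested.

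The genes named were, per class, the 4 brightest, those past an adjusted threshold and the 3 with the smallest unadjusted p in either test. From the 2 lists of collagen processing and basement membrane partners, the 3 genes with the smallest genotype p were named. The rule for marker lists was the 3 brightest, of which only some are given. Other genes of these lists (such as Gfap, Dcn, Lmod1, Rgs5, Ugt8, Mag, Loxl1, Nid2 and Fn1) were named outside the rule, after their values were seen. The members and lists were chosen with earlier results of these data known. Alternatives were quantile normalization, other dim limits, a pseudocount, no intensity trend, array weights, the mean over a gene's probe sets, the letter block and leaving out each array.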

Additional observations from a re-analysis of the deposited data

How the results depend on the processing

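No genotype call was made under any alternative, for the chains or for all probe sets, with a lowest adjusted p of 0.75 for a chain (without hSOD1G93A A). With the replicate block, 9 of 33 chains had an unadjusted p under 0.05 in limma, in place of 2, and 0 passed the adjusted threshold. With the block at its estimated correlation of 0.286 there were 6, without Col1a1, Col3a1 and Col5a1. Over all 18625 probe sets there were 474 without the block, 1090 with it and 1005 at the estimated correlation. The counts of 2, 9 and 6 include Col9a2.

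By letter, the 7 chains past the threshold became 0 without the intensity trend and 4 with the mean over probe sets (Col4a1, Col4a2, Col8a2 and Lamb1), and the 195 probe sets became 0 and 59. With no dim limit 5 of 51 chains and 110 probe sets passed, and with no genotype term 5 of 33 chains and 104 probe sets. Col3a1 and Col12a1 were the chains lost in both. With single arrays left out, 9 (without hSOD1G93A B) to 15 chains (without NonTG C or hSOD1G93A C) and 341 to 1009 probe sets passed. The causes were not tested. The 2 chains without overlap, against 7.51% of all probe sets tested, became 4 with no dim limit, against 8.09%. Counts for the stricter limit and with an array left out are not read here, as no share over all probe sets stands beside them. Fewer arrays also make overlap rarer.

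Of 315 alternative values of the genotype difference, 32 changed sign, and of 293 letter differences 2 did. None of these differences had passed a test. Quantile normalization gave 0.0096 for Col11a1 and 0.0100 for Col4a5 by genotype and 0.032 for Col1a2 from A to B. Array weights gave 0.031 for Col11a1, 0.066 for Col12a1, 0.0011 for Col4a1 and 0.0024 for Col4a2. The mean over probe sets gave 0.015 for Col11a1 and 1.7e-05 for Col12a1. With 1 array left out, the genotype difference ran from -0.15 to 0.076 for Col11a1, from -0.24 to 0.24 for Col12a1, from -0.50 to 0.045 for Col14a1, from -0.33 to 0.23 for Col4a1, from -0.32 to 0.26 for Col4a2 and from -0.061 to 0.035 for Col4a5. It ran from -0.021 to 0.28 for Col6a1, from -0.26 to 0.53 for Col8a2, from -0.32 to 0.15 for Lama4, from -0.64 to 0.17 for Lamb1 and from -0.10 to 0.31 for Lamc1. The A to B difference of Col6a1 ran from -0.093 to 0.32. A signal near or under 66.7, as for Lama1 and Col9a2 in the NonTG cultures, limits what their sizes can show.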
